A study of Mus musculus with 4 samples.

Results

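The SR splicing factors were examined here as 10 genes, Srsf1 to Srsf7, Srsf9, Srsf10 and Srsf11, taken by name from a deposited table of 40630 mouse genes. All 10 were found, and all 10 passed the filter of a mean of at least 1 TPM (a transcript level corrected for transcript length and library size). RNA was sequenced from neocortex of C57BL/6 embryos at E13.5, when cortical progenitors are giving rise to neurons. One group of 2 libraries carried the genotype Upf2fl/fl Emx1-Cre+ (replicates 4 and 5, labelled conditional knockout, cKO, and called knockout-labelled here), and the other group of 2 carried Upf2fl/+ Emx1-Cre- (replicates 8 and 9, control littermates). Every library thus has at least 1 floxed allele, and effects of Cre and of floxed allele number cannot be told apart. Emx1-Cre acts in the dorsal telencephalic lineage, so that blood vessels, meninges, microglia and immigrant interneurons keep an intact Upf2. Whether the libraries are from separate embryos is not stated, so the spread between libraries, on which the p-values rest, may be technical. In the fit of all libraries that spread is pooled over genes, and each SE is not the spread of a gene's own libraries.

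SR proteins bind exonic enhancer sequences through RNA recognition motifs and recruit the spliceosome through a domain rich in arginine and serine. Most also control their own amount: when the protein is abundant, its pre-mRNA is spliced to include a poison exon, or to splice an intron after the stop codon, and the product has a stop codon upstream of an exon junction. Upf2 bridges Upf1 and Upf3 in nonsense-mediated decay (NMD), the pathway that removes such transcripts. The comparison asked how the total RNA of these genes stood in neocortex labelled as lacking Upf2. The table gives 1 value per gene, which adds productive and NMD transcripts together, so the share of poison exon inclusion was not measured.

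The GENCODE M21 annotation (mouse build GRCm38) was used to show what the NMD products of these genes are. It lists 15 transcripts of the NMD class in 9 of the 10 genes, all except Srsf10, against 28.0% of the protein-coding genes tested. In all 15 the annotated stop codon lies upstream of the last exon junction, by 70 to 709 bases. Distances to junctions in this paragraph count from the last coding base. Such a position is what places a transcript in this class, so it is not a result about these genes. In Srsf3, Srsf4, Srsf6, Srsf7, Srsf9 and Srsf11 a stop codon lies in an internal exon that is absent from the principal transcript, the poison exon in the usual sense. In Srsf5 it lies in an exon that starts within the preceding intron and so is longer than its usual form. The 2 NMD transcripts of Srsf2 keep the normal stop codon and have their last junction 116 and 220 bases after it, and those of Srsf1 stop 83 bases before a last junction, inside an exon of the principal transcript.

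The sequences below run from the first base of each of these exons to the premature stop codon, which is in capitals, and show how soon the reading frame ends once the exon is included. They are written 5′ to 3′ on the gene's own strand, from the GENCODE M21 transcripts.
Srsf3, chr17:29039454-29039487, plus strand: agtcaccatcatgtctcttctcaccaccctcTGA
Srsf4, chr4:131884276-131884390, plus strand: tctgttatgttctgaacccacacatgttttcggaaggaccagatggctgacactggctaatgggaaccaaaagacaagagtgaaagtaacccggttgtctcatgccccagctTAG
Srsf5, chr12:80947116-80947130, plus strand: ggcttctctgtaTAG
Srsf6, chr2:162932815-162932966, plus strand: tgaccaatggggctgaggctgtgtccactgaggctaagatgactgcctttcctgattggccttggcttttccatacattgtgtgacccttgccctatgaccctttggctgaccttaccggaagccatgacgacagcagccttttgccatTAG
Srsf7, chr17:80205054-80205081, minus strand: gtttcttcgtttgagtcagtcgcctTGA
Srsf9, chr5:115328347-115328428, plus strand: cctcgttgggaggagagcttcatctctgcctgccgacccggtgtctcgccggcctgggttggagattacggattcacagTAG
Srsf11, chr3:158024209-158024231, minus strand: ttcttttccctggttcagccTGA

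The premature stop comes after 12 bases in Srsf5, 20 in Srsf11, 25 in Srsf7 and 31 in Srsf3, and after 79, 112 and 149 bases in Srsf9, Srsf4 and Srsf6. The poison exons of Srsf3 and Srsf7, a closely related pair, are of nearly the same length, 456 and 460 bases, and the shortest is the 109-base exon of Srsf11. A further exon of Srsf11, of 117 bases, also carries a stop. The transcript with the Srsf3 exon has the annotation's highest support level (1), while those printed for Srsf4, Srsf6, Srsf9 and Srsf11 have the lowest (5).

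**Figure D1:**
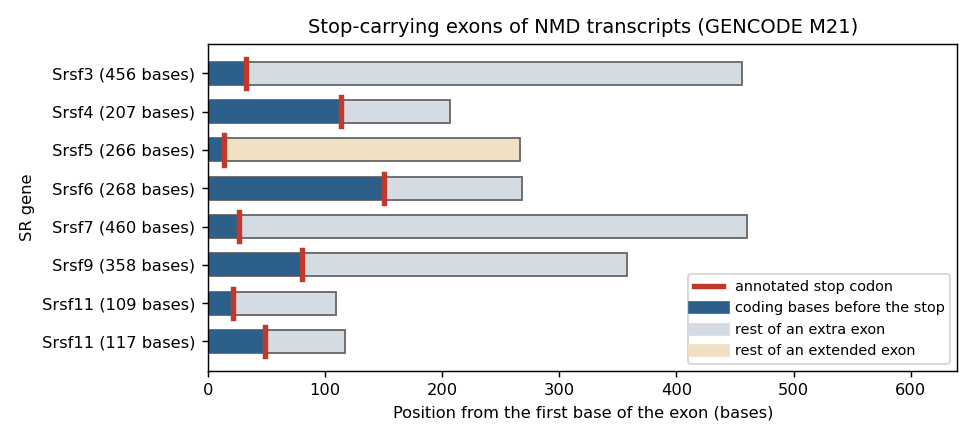
Exons that carry the annotated stop codon of NMD transcripts in 7 SR genes, drawn to scale from the first base of the exon (x axis, bases). Blue is the coding part, the red line the stop codon and the pale part the rest of the exon; in Srsf5 the exon is an extended form of a usual exon, and Srsf11 has 2 such exons. The stop lies after at most 31 bases in Srsf3, Srsf5, Srsf7 and the shorter Srsf11 exon.

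The libraries differed in more than their genotype label, and control 9 stood apart from control 8 along the GC content of genes, as described with the fold changes. Upf2 itself stood at 27.8 and 42.2 TPM in the knockout-labelled libraries, against 23.7 TPM in control 8 and 41.3 TPM in control 9 (0.13 ± 0.36 (SE), limma adjusted p = 0.853), with overlapping groups. With the GC trend of each library removed, as described with the fold changes, it stood at 0.58 ± 0.18 (SE, adjusted p = 0.0905, over a range of 0.0905 to 0.9998 in 15 alternatives), and both knockout-labelled libraries lay above both controls. A value for the whole gene cannot check the loss of a floxed segment, and the groups are therefore named by their labels; the value turned to -0.16 without knockout-labelled replicate 5 and -0.26 without control 8. The 9 cortex markers were all present, at 22.5 TPM or more in each library, with sums of 1344 to 1612 TPM in the knockout-labelled and 1768 to 1906 TPM in the control libraries and 2 called lower. All 11 hem and choroid plexus markers were called lower (13.1 to 18.7 against 2140 to 2354 TPM, with 1 marker at 0 in 1 knockout-labelled library), as were all 7 meningeal markers (2.97 to 6.39 against 199.5 to 379 TPM). All 10 ganglionic eminence markers were called higher (471 to 920.3 against 79.6 to 172 TPM). Sums of 10 neuron markers were 6424 to 7601 against 3483 to 4445 TPM with 1 called higher, those of 10 apical progenitor markers 3122 to 3123 against 2755 to 3794 TPM with 1 called lower, and those of 10 proliferation markers 1625 to 1687 against 1984 to 2804 TPM with none called. The cortex, apical progenitor, proliferation and hem and choroid plexus sums, like the SR sum, were highest in control 9. The part of tissue composition in the SR values was not tested.

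All 10 genes were abundantly transcribed, on 2645 to 37903 recovered reads a gene and library. Summed over the 10, their level was 1729 and 2043 TPM in knockout-labelled replicates 4 and 5, against 2144 TPM in control 8 and 3494 TPM in control 9. A set of 8 genes, all except Srsf4 and Srsf9, had a negative fold change, against 59.3% of all tested genes. For 6 of these 8 both knockout-labelled libraries lay below both controls. Among all 15107 tested genes 34.1% were lower without overlap and 23.5% higher without overlap, the latter holding for 2 SR genes, Srsf4 and Srsf9. The median fold change of the 10 was -0.59 on the log2(TPM + 1) scale, knockout-labelled minus control, and that of all tested genes was -0.16. One gene, Srsf5, fell past the threshold of 0.05 on the adjusted p of limma, against 5.24% of all genes called lower and 2.9% called higher, and 4 of the 10 had an unadjusted p under 0.05, against 22.8% of all genes. Levels of Srsf3, Srsf5 and Srsf10, which have near-identical copies elsewhere in the genome, are uncertain to the extent that reads were shared in counting. The same holds for Srsf1, Srsf2 and Srsf4, which overlap genes on the opposite strand. In bulk tissue, fewer cells of a type and less RNA per cell cannot be told apart.

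**Figure D2:**
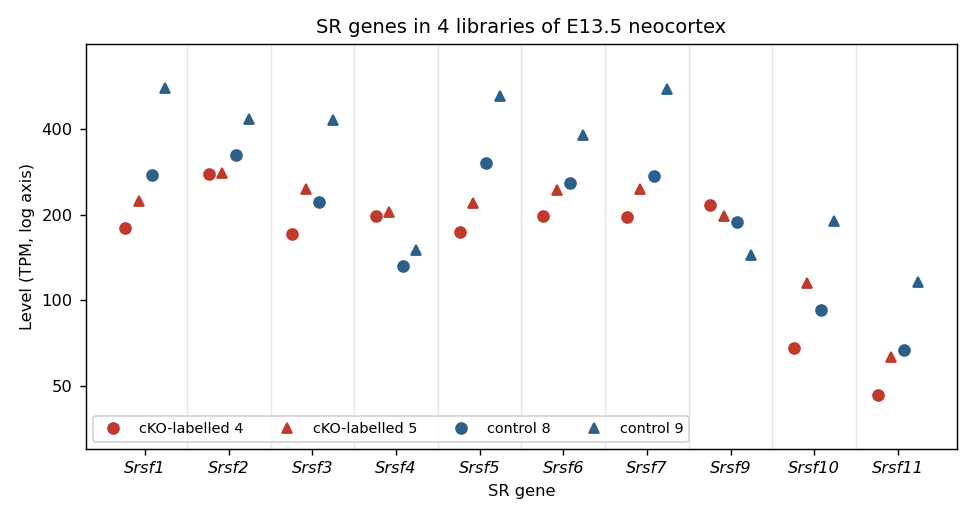
Level of each SR gene in each library (y axis, TPM, log axis), with knockout-labelled (cKO) libraries in red and controls in blue. Control replicate 9 is the highest library for 8 genes and the lowest for Srsf9; Srsf4 is the gene in which both knockout-labelled libraries stand clear above both controls.

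Srsf1 and Srsf9 are close relatives with a pair of RNA recognition motifs each, and their fold changes had opposite signs, though neither passed. Srsf1, the prototype SR protein and a regulator of exon inclusion, export and translation (ENSMUSG00000018379.17, chromosome 11, 88047373 to 88053755), stood at 179.9 and 223 TPM in knockout-labelled replicates 4 and 5, against 276 TPM in control 8 and 562 TPM in control 9. The groups did not overlap, but the controls differed from each other by more than control 8 differed from either knockout-labelled library. Its fold change was -0.97 ± 0.35 (SE, 2 libraries a group), which did not pass (limma adjusted p = 0.0632).

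Srsf9, which has a short arginine-serine domain (ENSMUSG00000029538.14, chromosome 5, 115327177 to 115333080), had 216 and 197 TPM in the knockout-labelled libraries and 189 and 144 TPM in controls. Here control 9 was the lowest library, and control 8 lay close to knockout-labelled replicate 5. The fold change of 0.32 ± 0.35 (SE) did not pass (limma adjusted p = 0.578). The ratio of Srsf9 to Srsf1 TPM, taken within a library, was 1.20 and 0.884 in the knockout-labelled libraries and 0.683 and 0.257 in controls.

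Srsf4, Srsf5 and Srsf6 form another related set, again with values on both sides of 0. Srsf5, first described in rat as a gene induced in regenerating liver (ENSMUSG00000021134.17, chromosome 12, 80945504 to 80950507), measured 174 and 221 TPM, with 305 and 524 TPM in controls. Both knockout-labelled libraries were lower than both controls, at 0.476 times the control mean. The log2 fold change was -1.03 ± 0.35 (SE), and this was the call among the 10 (limma adjusted p = 0.0451, over a range of 0.00144 to 0.9998 in 15 alternatives). The call ended in 11 of these 15, among them each fit that left out knockout-labelled replicate 4 or 5 or control replicate 9, in which the fold change stood at -0.85, -1.20 and -0.64.

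Srsf4, the SR protein with the longest arginine-serine domain (ENSMUSG00000028911.16, chromosome 4, 131873617 to 131901706), was the gene that went furthest the other way. It had 198 and 205 TPM in the knockout-labelled libraries against 133 and 151 TPM in controls. Both pairs were close within themselves, and the knockout-labelled pair lay at 1.42 times the control mean. Its fold change was 0.51 ± 0.35 (SE) and did not pass (limma adjusted p = 0.368); the call appeared without control 8 (0.41, adjusted p = 0.0440) or control 9 (0.60, adjusted p = 0.0477), with a range of 0.0440 to 0.9998 over the 15 alternatives. Its share of the summed TPM of the 10 genes was 11.5% and 10.0% in the knockout-labelled libraries and 6.19% and 4.32% in controls.

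Srsf6, whose product is related to that of Srsf4 (ENSMUSG00000016921.14, chromosome 2, 162931528 to 162937121), measured 199 and 244 TPM, with 260.0 and 383 TPM in controls. The values of knockout-labelled replicate 5 and control 8 were near each other, and the fold change of -0.52 did not pass (limma adjusted p = 0.364).

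Srsf3 and Srsf7, small SR proteins with a single RNA recognition motif that link splicing to mRNA export, shared a high value in control 9. Srsf7, which adds a zinc knuckle (ENSMUSG00000024097.11, chromosome 17, 80200080 to 80207307), had 197 and 248 TPM in the knockout-labelled libraries against 273 and 555 TPM, without overlap. Srsf3 (ENSMUSG00000071172.13, chromosome 17, 29032628 to 29043373) measured 172 and 246 TPM, with 223 and 433 TPM in controls, so that control 8 lay between the knockout-labelled libraries. Neither passed, with fold changes of -0.82 ± 0.35 (SE) for Srsf7 and -0.59 ± 0.35 (SE) for Srsf3 (limma adjusted p = 0.135 and 0.292).

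Srsf2, the single-motif factor known as a mark of nuclear speckles (ENSMUSG00000034120.18, chromosome 11, 116849901 to 116853094), had 279.5 and 280.2 TPM in the knockout-labelled libraries and 326 and 436 TPM in controls. It was the most abundant of the 10 in 3 libraries and the fourth in control 9. The knockout-labelled pair differed by 0.0034 on the log2 scale, below both controls, and the fold change of -0.43 did not pass (limma adjusted p = 0.46).

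Srsf11 was the least abundant of the 10 in every library, and Srsf10 came next in 3 of the 4. Srsf10, a splicing repressor in its dephosphorylated state in mitosis and heat shock (ENSMUSG00000028676.17, chromosome 4, 135855747 to 135869908), measured 68.2 and 115 TPM, with 92.8 and 191 TPM in controls, and its groups overlapped. Srsf11, first described as a nuclear protein with an arginine-serine domain (ENSMUSG00000055436.18, chromosome 3, 158010473 to 158036639), measured 46.5 and 63.0 TPM, with 67.04 and 116 TPM in controls, with little between knockout-labelled replicate 5 and control 8. The fold changes were -0.58 and -0.70 (limma adjusted p = 0.295 and 0.207).

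For 7 of the 10 genes, all except Srsf2, Srsf4 and Srsf5, the difference inside the control pair was larger in size than the fold change between the groups. On the log2 scale control 9 exceeded control 8 by 1.02 for Srsf1, 1.02 for Srsf7, 1.03 for Srsf10 and 0.96 for Srsf3, by 0.18 for Srsf4, and fell below it for Srsf9 at -0.38. The knockout-labelled mean stood at -0.46 for Srsf1 and -0.64 for Srsf5 when set against control 8, and at -1.48 and -1.41 against control 9. Without control 8 all 10 genes passed, 8 lower and 2 higher, in a fit that called 30.1% of all genes lower and 18.7% higher. Without control 9, Srsf4 passed as higher and no SR gene passed as lower, in a fit that called 2.56% higher and 3.3% lower, and 3 of the 10 had an unadjusted p under 0.05, against 20.6% of all genes.

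**Figure D3:**
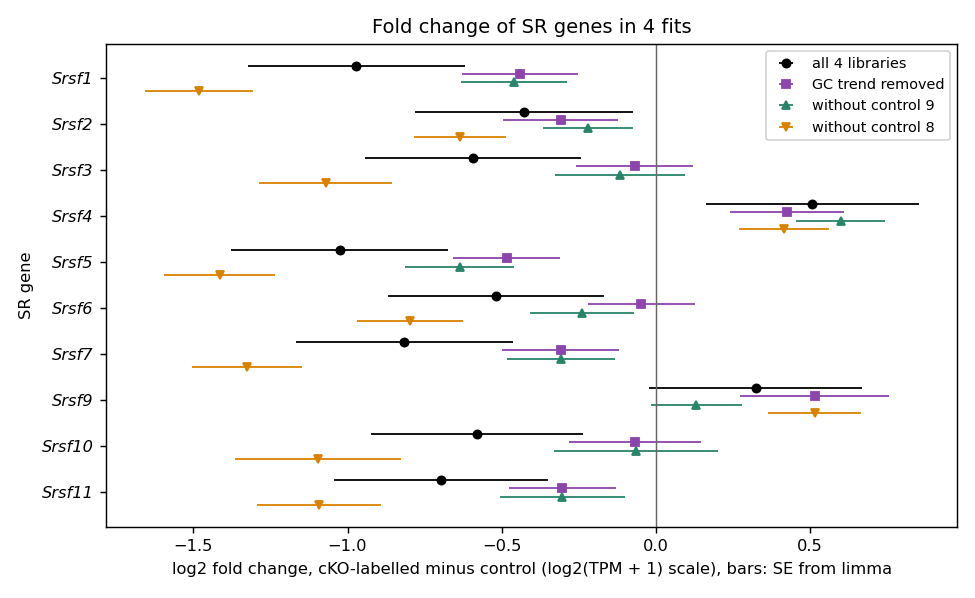
Log2 fold change of each SR gene (x axis, knockout-labelled minus control, bars are the SE from limma) in 4 fits: all libraries, the GC trend removed, and without control 9 or control 8. Srsf1 runs from -1.48 without control 8 to -0.46 without control 9 and -0.44 with the GC trend removed, whereas Srsf4 stays between 0.41 and 0.60 in all 4.

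The fold changes moved with the base composition of the genes. Control 9 differs from control 8 across all genes by GC content, with a median of 0.75 on the log2 scale in the lowest of 5 equal GC groups and -0.58 in the highest. A set of 6 SR genes, Srsf1, Srsf3, Srsf5, Srsf6, Srsf7 and Srsf10, lie in that lowest group, with 40.1% to 42.8% GC in their longest transcript, and the median fold change of all genes there was -0.54. Srsf4 and Srsf9, at 53.0% and 48.9% GC, have 2 of the 3 highest values of the 10, the other being Srsf2 at 49.97%. Across the 10 genes, which share their libraries, the Spearman correlation of fold change with GC content was 0.85 (n = 10), and across all genes with a GC value it was 0.54. The part of GC content in the fold changes was not tested beyond the corrected values given next.

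After each library's trend with GC content was removed, the median of the 10 moved to -0.19 and that of all genes to -0.01, and none of the 10 passed, against 4.63% of genes called lower and 3.99% higher; 2 of the 10 had an unadjusted p under 0.05, against 27.6% of all genes. The values nearest 0 were those of 3 genes, with Srsf6 at -0.05 and Srsf3 and Srsf10 both at -0.07. A set of 5 stayed lower without overlap, against 30.8% of all genes, namely Srsf1, Srsf2, Srsf5, Srsf7 and Srsf11. Srsf4 and Srsf9 stayed higher without overlap, against 29.4%. Across the 10 genes the corrected fold changes still rose with GC content (Spearman correlation 0.64, n = 10, against 0.85 before removal).

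On that corrected log2 scale Srsf5 had the widest gap of the 10 between the nearest libraries of the groups, while the difference of group means was larger in size for Srsf9. It had 7.86 and 7.92 in the knockout-labelled libraries and 8.35 and 8.40 in controls, a gap wider than the difference inside either pair (fold change -0.48 ± 0.17 (SE), limma adjusted p = 0.121). Srsf4 had 7.61 and 7.63 against 7.02 and 7.38, with the controls apart by 0.36 (0.42 ± 0.19 (SE), adjusted p = 0.185). Srsf9 had 7.90 and 7.69 against 7.62 and 6.94, and control 9 lay at -0.68 from control 8 (0.52 ± 0.24 (SE), adjusted p = 0.211).

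With the GC trend removed and control 8 left out, Srsf1 was called lower (-0.59, limma adjusted p = 0.0360) and Srsf9 higher (0.85, adjusted p = 0.0150), in a fit that called 9.05% of genes lower and 10.2% higher. With the GC trend removed and control 9 left out instead, both fold changes were smaller in size, at -0.29 for Srsf1 and 0.18 for Srsf9. The values of both genes thus depended on which control was kept. Over the 15 alternatives the adjusted p ran from 0.0013 to 0.9998 for Srsf1 and from 0.0150 to 0.9998 for Srsf9.

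**Figure D4:**
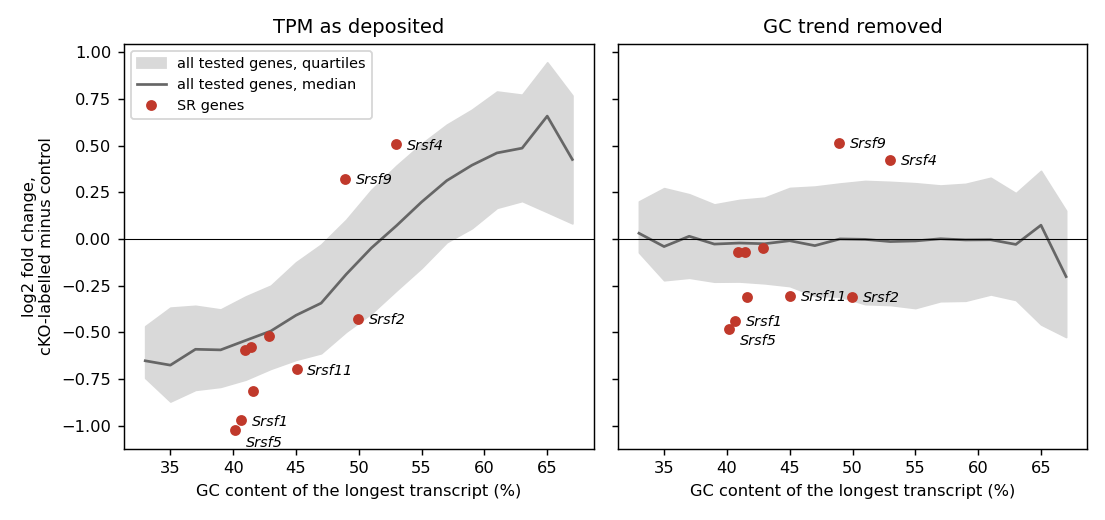
Log2 fold change (y axis, knockout-labelled minus control) against the GC content of the longest transcript (x axis, %), for the 10 SR genes in red and for all tested genes in grey (median line and quartile band in bins of GC). With TPM as deposited, most SR genes sit at the low-GC end, where the grey median is also negative. With the trend removed the grey median is flat by construction, and Srsf4 and Srsf9 stand above it, Srsf1 and Srsf5 below. The Spearman correlation with GC content across the 10 SR genes is then 0.64.

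Other splicing genes were set beside the SR genes in 5 lists of 60 genes, each counted once, of which 59 were tested. One fell and none rose, a share of 1.69% lower against 5.24% of all genes. A negative fold change was found in 42 of the 59 (71.2%), against 59.3% of all genes, with a median of -0.38 against -0.16. An unadjusted p under 0.05 was found in 16 (27.1%), against 22.8%. With the GC trend removed 40 of the 59 were negative (67.8%, against 51.5%), with a median of -0.16 against -0.01. An unadjusted p under 0.05 was then found in 9 (15.3%), against 27.6%. The gene called with TPM as deposited was Pnn, which encodes an SR-like protein associated with the exon junction complex. It had 57.7 and 67.8 TPM against 101 and 167 TPM (-1.04 ± 0.34 (SE), limma adjusted p = 0.0360). That call ended in 7 of 15 alternatives, among them GC removal and each fit without knockout-labelled replicate 4 or 5 or control replicate 9, where the value was -0.93, -1.16 and -0.68. Its adjusted p ran from 0.0013 to 0.9998 over the alternatives.

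The counts in single lists are to be read against the same shares of all genes, 59.3% negative and 22.8% with an unadjusted p under 0.05. Of 12 SR-like regulators 8 were negative and 1, Pnn, passed, 2 having an unadjusted p under 0.05. Their median was -0.08, against -0.16 for all genes. Among 8 tested kinases and importers of SR proteins 7 were negative and none passed, 2 having an unadjusted p under 0.05 (median -0.49), with Prpf4b, a spliceosomal kinase, at -0.97 (limma adjusted p = 0.0639) and Clk1, which phosphorylates SR proteins, at -0.73 (adjusted p = 0.197). Of 26 hnRNP genes, which often oppose SR proteins, 21 were negative and none passed, 9 having an unadjusted p under 0.05 (median -0.54). Hnrnpf, a G-tract binding protein, stood at -0.98 (limma adjusted p = 0.0583), and Ptbp2, the neuronal polypyrimidine tract binding protein, at -0.96 (adjusted p = 0.0599). The 12 genes of splice site recognition were split, 7 positive and 5 negative (median 0.12). None was called, and 2 had an unadjusted p under 0.05. Luc7l3, a U1-associated protein, stood lowest at -0.99 (limma adjusted p = 0.0515). Median GC content was 46.9%, 42.8%, 43.3% and 50.6% in the SR-like, kinase, hnRNP and splice site lists, against 49.8% over all tested genes. With the GC trend removed, the median fold changes were, in the same order, -0.03, -0.15, -0.23 and 0.03, against -0.01 for all genes. Negative were then 6, 7, 20 and 6, against 51.5% of all genes. An unadjusted p under 0.05 was then found in 2, 2, 2 and 3, against 27.6%.

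The last list holds 16 splicing regulators taken to have poison exons, which was not checked gene by gene. All but 1 of them also stand in the lists above, so their counts are not a separate result. None was called. A negative fold change was found in 13 (81.25%, against 59.3% of all genes), with a median of -0.28. An unadjusted p under 0.05 was found in 4 (25%, against 22.8%). Hnrnph1, which has no NMD transcript in the M21 annotation, stood at -0.97 (limma adjusted p = 0.0722). The genes whose 4-library profile came closest to the median SR profile, of the 59, were Tra2a, Clk1 and Sf3b1, an SR-like splicing activator, the kinase and a U2 component, with mean absolute differences of 0.05, 0.06 and 0.06 on the log2 scale over 4 libraries. Tra2a, for example, had 77.5 and 111 TPM against 111 and 179 TPM. With the GC trend removed 1 of the 59 genes rose, against 3.99% of all genes called higher. It was Luc7l, a U1-associated protein singled out after its value was seen (0.93, limma adjusted p = 0.0234, against 0.61 and 0.269 with TPM as deposited). None passed as lower, against 4.63% of all genes, Pnn no longer passing (-0.59, limma adjusted p = 0.0539). The list of regulators taken to have poison exons, at a median GC content of 44.0%, then had a median fold change of -0.16. In it 11 were negative (68.75%, against 51.5% of all genes), and 2 had an unadjusted p under 0.05 (12.5%, against 27.6%).

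**Figure D5:**
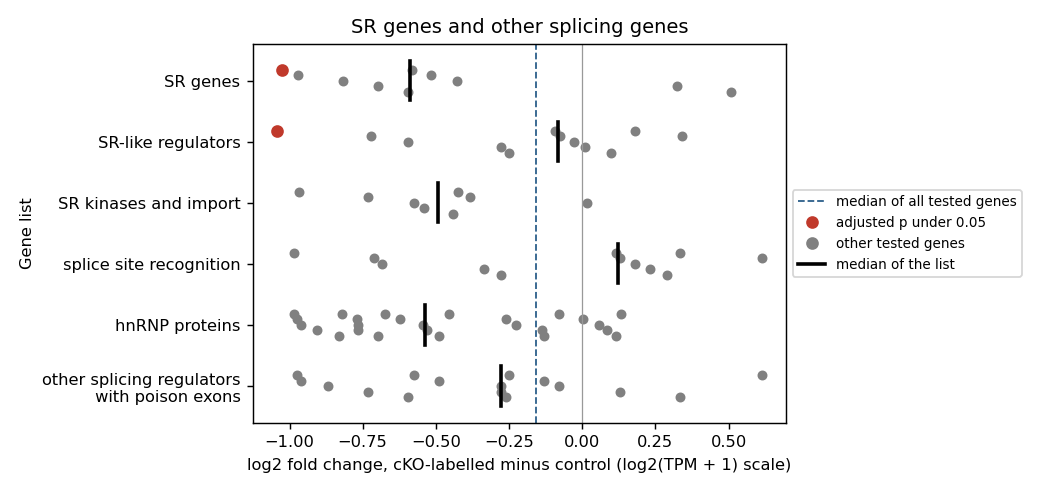
Log2 fold change (x axis, knockout-labelled minus control) of the SR genes and of 5 lists of other splicing genes, 1 point per tested gene, with the list median as a black bar and the median of all tested genes, -0.16, as a dashed line. The red points are Srsf5 and Pnn, the genes past the threshold, and a gene in more than 1 list is drawn in each.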

How the data were processed

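RNA from 4 libraries of E13.5 neocortex was measured by RNA-seq from total RNA with the TruSeq Stranded Total RNA kit, per the labels' protocols. The authors deposited TPM values. STAR and mm10 are named per the submitters' processing notes, with the counter, strand handling and annotation release being not given in the sources used here. Multiplied by merged exon lengths of GENCODE M21, 100.0% of the TPM values above 0 were whole multiples of 1 step per library within 0.05 reads, which gave 33537843 to 41680052 reads a library.

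Genes with a mean of at least 1 TPM over the 4 libraries (15107) were fitted on log2(TPM + 1) in limma 3.58.1 under R 4.3.3, with moderated two-sided tests whose variance prior followed the intensity, and with Benjamini-Hochberg adjustment over all tested genes and calls under 0.05. In the fit of all libraries to TPM as deposited the prior was estimated with infinite degrees of freedom, and each SE therefore is the pooled trend and not the spread of a gene's own libraries. The fit was tried on simulated counts whose planted changes were larger than any SR fold change here. Those counts had no GC trend. The trial therefore does not bear on changes of the size, or libraries with the GC difference, seen here. The smallest two-sided p of an exact permutation test is 0.333 for 2 against 2 libraries, so none was run. GC content is that of a gene's longest M21 transcript, and its trend in each library was removed by lowess with a span of 0.3. Near-identical copies were sought with blastn at 95% identity over at least 100 bases.

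The members, lists and alternatives were chosen with earlier results of these data known. The genes named were the 10 members, Upf2, the called genes of each splicing list or else its 2 of smallest p, and the 3 genes closest to the members' profile. The alternatives changed the pseudocount to 0.1 or 0.5, dropped the TPM filter or raised it to 5, scaled by median of ratios, normalized by quantiles, removed the GC trend, used robust moderation or no intensity trend, left out each library in turn, and joined GC removal with leaving out a control.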

Additional observations from a re-analysis of the deposited data

How the results depend on the processing

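No paired analysis was run, because the sample titles name no litter and the 2 groups share no replicate number. Over 15 alternatives, 124 of the 150 fold changes of the SR genes kept their direction and their side of the threshold, 12 passed it where they had not, 11 (all Srsf5) lost it and 3 turned. The turned values were 0.0895 for Srsf10 and 0.0483 for Srsf3 with the GC trend removed and control 9 left out, and 0.0192 for Srsf6 with the GC trend removed and control 8 left out. Upf2 ranged from -0.26 (control 8 left out) to 0.64 (GC trend removed and control 9 left out), and was 0.58 with the GC trend removed, 0.52 with control 9 left out and -0.16 with replicate 5 left out. The number of SR genes called was 1, and it was 0 with GC removal, with a mean TPM of at least 5, with no filter on low TPM, after median-of-ratios scaling, with robust empirical Bayes and with no intensity trend. It ranged from 0 to 10 with a library left out, the 10 coming without control 8, and was 2 without control 8 when the GC trend was also removed. The median of the SR genes was -0.19 with GC removal and ranged from -1.08 to -0.13 with a library left out, with or without GC removal, and was -0.23 without control 9 and no GC removal. The count over all genes, 1229, was 642 with a mean TPM of at least 5 and 178 with no filter, and ranged from 176 to 7379 with a library left out (2881 and 766 with GC removal and control 8 or 9 left out). In the wider lists the count of 1 was 0 after median-of-ratios scaling and with no filter and 2 after quantile normalization, and ranged from 0 to 35 with a library left out (16 with GC removal and control 8 left out). The median of all genes was -0.16, 0.02 after median-of-ratios scaling and -0.01 after quantile normalization, and the split of calls, 438 higher and 791 lower, became 846 and 658 and then 714 and 535. Apart from the alternatives' own construction, such as fewer libraries, the cause of these changes was not tested. Where leaving out a library left 1 in a group, the lone library was assumed to vary like the other group. Each SR gene had at least 2645 reads in each library, with 2 libraries a group, and what limits detection was not tested.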

Other observations

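Near-identical copies of some SR genes were also listed, and how the counting treated reads shared by a parent and its copy is not given, so these values are uncertain. Gm12966, which matches Srsf5 at 99.0% over 810 bases, had 7.51 and 10.2 TPM in the knockout-labelled libraries and 15.9 and 30.9 TPM in controls. Gm12355, at 98.3% over 1298 bases of Srsf3, had 3.37 and 7.47 TPM against 8.42 and 18.6 TPM. For both copies, as for their parent genes, control 9 was the highest library and knockout-labelled replicate 4 the lowest. Antisense neighbours with a value were low beside the SR genes they overlap: Gm12992, which shares 1532 exonic bases with Srsf4, had 0.47 to 0.77 TPM, and Mettl23, which shares 460 with Srsf2, had 30.4 to 41.6 TPM. No value was given for Gm11508, which shares 98 exonic bases with Srsf1.

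Genes with an NMD transcript in the M21 annotation were looked at as a class. The 3555 tested protein-coding genes with such a transcript had a median log2 fold change of -0.12, and so did the 9133 without one. Of the first, 2.39% passed as higher and 2.78% as lower, and among the second 3.33% and 5.57%, values given with no test.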
